A study of Mus musculus with 9 samples.

Results

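The forkhead and Sox genes outside the endoderm core were taken as every gene whose symbol on the array is Fox, a letter and a number, or Sox and a number. Foxa1, Foxa2, Foxa3, Foxh1, Foxm1, Sox2, Sox7, Sox17 and Sox18 were left out. The rule gave 53 of the 22180 genes measured, 38 forkhead and 15 Sox genes, each read from the brightest of its probe sets. Their levels were compared between days 4, 7 and 21 of differentiation, with 3 arrays a day. All 9 samples came from mouse embryonic stem cells with an Afp::GFP transgene, in which the promoter of the alpha-fetoprotein gene drives green fluorescent protein. The cells were differentiated as embryoid bodies, which start from small cell aggregates, in medium with fetal bovine serum, transferrin and ascorbic acid on gelatin, and cells were sorted by flow cytometry, per the labels as Afp-expressing; the day 4 arrays go against that label at the transcript level, as shown with the Afp values. No genotype, treatment or unsorted control other than the day of culture separates the groups. Whether more than 1 transgenic line was used, and whether the arrays of a day came from separate cultures, is not stated in the labels. The p-values therefore rest on the differences among 3 arrays a day, and these may be technical. The series title names differentiating endoderm, and the comparisons ask how these transcripts differ between sorted cells of the 3 days.

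Forkhead factors bind DNA through a winged-helix domain, and Sox factors bend DNA through an HMG box related to that of the testis-determining factor Sry. Members of both families specify lineages from each germ layer, and their subfamilies are named by letters. Several of them are known from the derivatives of the gut tube: Sox9 marks ductal and progenitor cells of liver and pancreas, Sox4 acts with it in bile duct development, and FoxF factors act in the mesenchyme around the gut.

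Signals are log2 values, and a difference of 1 is a 2-fold change. A gene was counted as above background on a day where its mean exceeded the 95th percentile of 1088 olfactory receptor genes, which lay between 5.96 and 6.01. Of the 53 genes, 37 passed on day 4, 36 on day 7 and 35 on day 21, beside 55.0% to 57.5% of all genes. With the 99th percentile instead, between 6.63 and 6.75, the counts were 22, 19 and 23. The lists and genes outside the families were measured on the same arrays, whose genome-wide correlations were 0.984 to 0.991 within a day and 0.938 to 0.971 between days. The labelled marker of the sort was checked first: the Afp transcript was at 5.62 to 5.93 on the day 4 arrays, below background and so against their label, at 10.54 to 10.68 on day 7 and at 12.95 to 13.14 on day 21. Of 10 visceral endoderm markers, Afp among them, 10 rose from day 4 to 7, with a median change of 3.74 and array means of 6.68 to 6.73 on day 4 and 10.31 to 10.32 on day 7. From day 7 to 21, 1 of them rose and 9 fell. Every change between days 4 and 7 given here lies beside that shift, and its part in them was not tested. The albumin transcript Alb was below background on days 4 and 7 and at 11.25 to 11.71 on day 21.

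Calls come from limma with Benjamini-Hochberg adjustment over all 22180 genes, at an adjusted p under 0.05. Between days 4 and 7, 5 of the 53 genes were higher (Foxk1, Foxo3, Foxo4, Foxp2 and Foxq1), or 9.43% beside 6.98% of all genes. Another 4 were lower (Foxc1, Sox4, Sox6 and Sox9), or 7.55% beside 6.47%. Between days 7 and 21, 9 were higher (Foxj1, Foxo1, Foxp1, Foxp2, Foxq1, Sox4, Sox5, Sox6 and Sox9), or 17.0% beside 12.4%. Another 6 were lower (Foxk1, Foxk2, Foxn2, Foxo4, Sox1 and Sox3), or 11.3% beside 10.7%. Over the whole span from day 4 to day 21, 9 were higher (17.0% beside 15.0%) and 7 lower (13.2% beside 14.1%). As shares, these counts lie near those of all genes. The median log2 change of the 53 genes was -0.02 from day 4 to 7, -0.06 from day 7 to 21 and -0.06 from day 4 to 21, beside -0.01, -0.03 and -0.03 over all genes. Calls of at least 2-fold, on the brightest probe set, were made for 9 genes: Foxc1, Foxq1, Foxj1, Foxp2, Sox1, Sox4, Sox5, Sox6 and Sox9. By interval, 1 was higher and 2 lower at day 7 than at day 4 (1.89% and 3.77%, beside 2.05% and 1.36% of all genes). At day 21, 5 were higher and 1 lower than at day 7 (9.43% and 1.89%, beside 4.64% and 1.80%). Against day 4, 4 were higher and 1 lower at day 21 (7.55% and 1.89%, beside 5.44% and 2.57%). For some genes the 3 arrays of the later day lay all above or all below those of the earlier day. These numbered 7 and 9 from day 4 to 7 (13.2% and 17.0%, beside 14% and 15.9% of all genes). From day 7 to 21 they were 11 and 9 (20.8% and 17.0%, beside 17.1% and 18.4%), and from day 4 to 21 10 and 13 (18.9% and 24.5%, beside 19.4% and 21.0%). Counted in either direction, the calls were 9, 15 and 16 of 53 (17.0%, 28.3% and 30.2%), beside 13.4%, 23.0% and 29.1% of all genes. Every called gene was above background on at least 1 day, as were 39 of the 53. Of all 13498 genes above background on at least 1 day, 21.0%, 34.5% and 43.9% were called. On that base the calls of the 2 families were 9, 15 and 16 of 39. The 3 comparisons share arrays, so their calls are not independent.

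**Figure D1:**
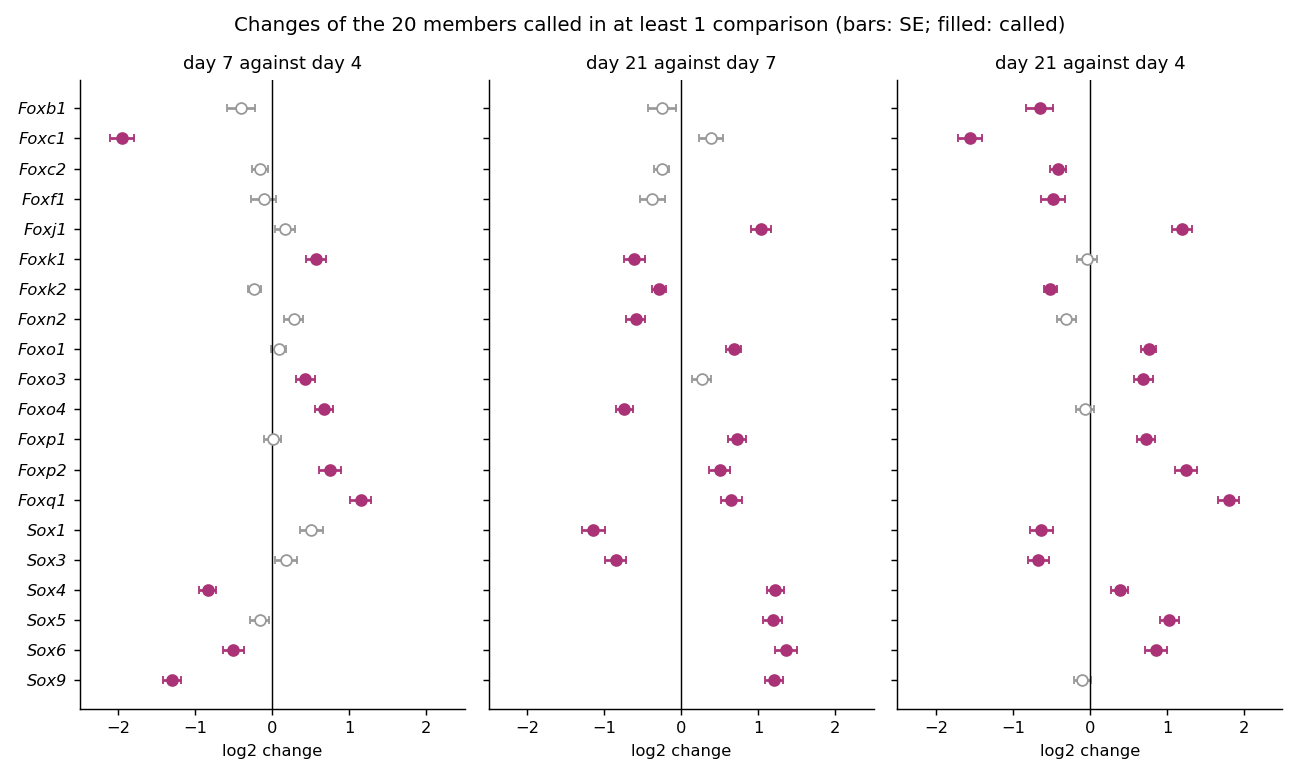
Log2 changes of the 20 genes called in at least 1 comparison, later day minus earlier day, with the standard error (SE) of the limma fit. Filled points passed an adjusted p under 0.05. Sox4, Sox6 and Sox9 lie left of 0 from day 4 to 7 and right of 0 from day 7 to 21, while Foxq1 lies right of 0 in both intervals.

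Sox4, a SoxC factor that acts in progenitors of many tissues, fell and then rose. Its log2 signal (probe set 17291525) was 10.15, 10.15 and 10.15 on the day 4 arrays, 9.28, 9.52 and 9.15 on day 7, and 10.62, 10.53 and 10.46 on day 21. The day 7 arrays lay below all others and the day 21 arrays above all others. It changed by -0.84 ± 0.11 (SE) from day 4 to 7 (limma adjusted p = 5.21e-04) and by 1.22 ± 0.11, or 2.34-fold, from day 7 to 21 (2.12e-05). The net rise from day 4 to 21, 0.39 ± 0.11, was called (0.0235), but not without day 21 replicate 1 or 2, without any 1 of the day 4 arrays, or with each array centred on its median. Over 16 alternative settings its adjusted p ran from 0.00435 to 0.0761. A second Sox4 probe set gave the same picture, with changes of -0.95 ± 0.11 and 1.32 ± 0.11. Of the other SoxC genes, Sox11, a factor of neural and mesenchymal progenitors, and Sox12 were not called in any comparison, with changes between -0.34 and 0.23.

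Sox9, the SoxE factor of cartilage, duct and progenitor epithelium, was the gene with the largest fall in the Sox family from day 4 to 7. Its signal (probe set 17257946) was 8.62, 8.60 and 8.60 on day 4, 7.09, 7.53 and 7.28 on day 7, and 8.51, 8.50 and 8.52 on day 21. The day 7 arrays lay below all others, a change of -1.30 ± 0.11 (2.47-fold lower, limma adjusted p = 3.03e-05), and the return by day 21 was 1.20 ± 0.11, or 2.30-fold (2.98e-05). Day 21 against day 4 was not called (-0.10 ± 0.11, adjusted p = 0.599). The neural crest and glial factor Sox10, above background on all days, and Sox8, below it on all days, were not called in any comparison. In this subfamily the calls were those of Sox9 alone.

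Sox5 and Sox6 are SoxD factors, which lack a transactivation domain of their own and act with Sox9 in cartilage. Both were higher at day 21 than on any earlier array. Sox5 (probe set 17472641) was at 6.30, 6.40 and 6.35 on day 4, 6.04, 6.39 and 6.15 on day 7, and 7.52, 7.44 and 7.18 on day 21. It was not called from day 4 to 7 (-0.16 ± 0.12) and rose 2.28-fold from day 7 to 21 (1.19 ± 0.12, limma adjusted p = 5.49e-05). Sox6 (probe set 17495340) was at 7.11, 7.11 and 7.09, then 6.39, 6.91 and 6.50, then 8.13, 7.93 and 7.81. Its rise of 1.36 ± 0.14 from day 7 to 21, or 2.57-fold (5.63e-05), was the largest of the 53 genes in that interval. Its fall from day 4 to 7 (-0.50 ± 0.14, limma adjusted p = 0.0407) was lost with the replicate block (0.0542), with median centring, in a fit of those 2 days alone, and without any 1 of the day 4 arrays, day 7 replicate 1 or 3, or day 21 replicate 2. Over 16 alternatives its adjusted p ran from 0.00696 to 0.148. Sox13, the third SoxD gene, was called in no comparison, with changes between -0.12 and 0.08.

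**Figure D2:**
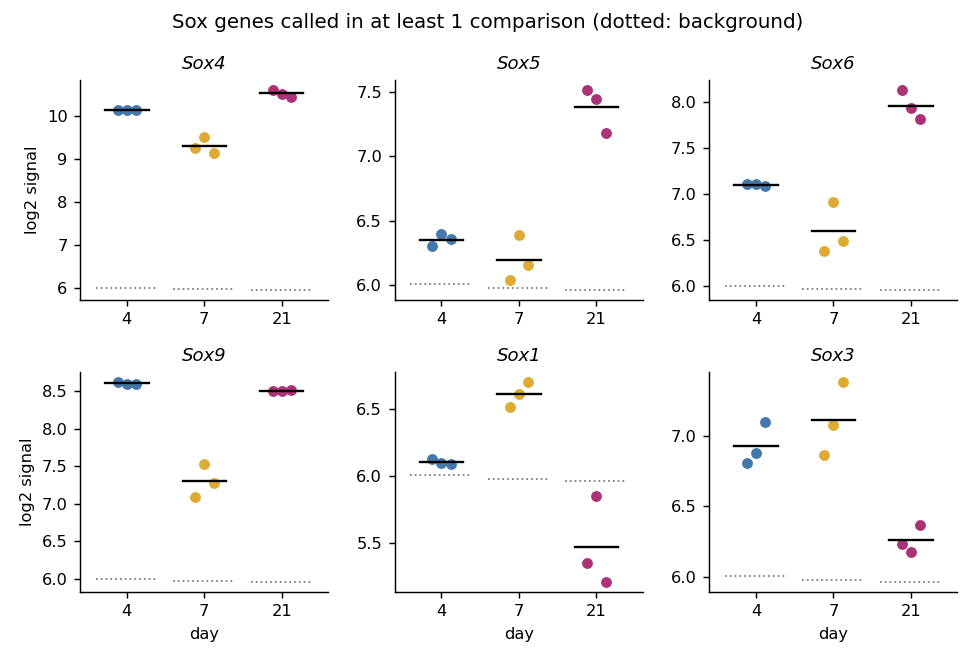
Log2 signal of the 6 Sox genes called in at least 1 comparison, by day. Points are arrays, bars the mean of 3, and dotted lines the background of the day. Sox4, Sox6 and Sox9 are lowest at day 7, and Sox1 and Sox3 are lowest at day 21.

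Between days 7 and 21, when Sox4, Sox5, Sox6 and Sox9 rose, transcripts of several other cell types rose too. Of 16 mesenchyme markers, 14 rose, 0 fell and 2 did not pass from day 7 to 21, with a median log2 change of 1.58. The matrix proteoglycan genes Dcn and Lum rose from below background on days 4 and 7 to day 21 means of 11.56 and 8.74. The mean log2 signal of the list ran from 6.79 to 6.85 on day 4, from 6.29 to 6.42 on day 7 and from 8.15 to 8.88 on day 21, and Tcf21 was below background on every day. From day 4 to 7 5 of the 16 fell and 0 rose, among them Twist1 (-1.77 ± 0.13), a factor of mesoderm and neural crest mesenchyme, and Pdgfra (-1.30 ± 0.31), the platelet-derived growth factor receptor alpha. On day 7 the second array was the highest of the 3 for the mesenchyme list and for Sox4, Sox5, Sox6 and Sox9. This was not particular to mesenchyme. The same array was highest for the Hedgehog, biliary and ductal, endothelial, neural crest and ciliated lists. It was not highest for the neural, smooth muscle, cardiac muscle, squamous, mesothelium, cartilage or hepatocyte lists. On day 21 the mesenchyme list was at 8.88, 8.42 and 8.15 on arrays 1 to 3. Sox4, Sox5 and Sox6 also differed between these arrays with array 1 highest and array 3 lowest, whereas Sox9 spanned 8.50 to 8.52. This order was not particular to mesenchyme either. The neural crest (6.80, 6.57 and 6.34), hepatocyte (7.47, 7.47 and 7.18) and ciliated lists had it too, and the other lists did not. Several forkhead genes had the same order, Foxo1, Foxp2, Foxk1 and Foxn3 among them. Of 9 hepatocyte markers, 6 rose and 0 fell from day 7 to 21 (median 1.01), with array means of 5.72 to 5.82 on day 7 and 7.18 to 7.47 on day 21, and Serpina1a, Tat and Cyp3a11 were below background on every day. Of 8 mesothelium markers, 4 rose and 1 fell (median 0.89), with array means of 6.78 to 7.0 on day 7 and 8.06 to 8.21 on day 21. Whether any of these cell types had a part in the Sox changes was not tested. In bulk RNA from sorted cells, fewer cells of a type and less RNA per cell cannot be told apart.

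Of 11 biliary and ductal genes, a list of genes that accompany Sox9 in ducts, 10 rose and 1 fell (Prom1) from day 7 to 21, with a median of 1.98. Tm4sf4, Onecut1, a factor of liver and duct development, and Cftr, a chloride channel of ducts, rose from below background on days 4 and 7 to day 21 means of 9.84, 8.96 and 6.82. Jag1, a Notch ligand, was above background on every day and rose by 2.18 ± 0.13. Jag1 and Hes1, a Notch target, were also the 2 genes of this list that fell from day 4 to 7 (-2.21 ± 0.13 and -0.66 ± 0.10). Jag1 was at 9.10 to 9.48 on day 4, 6.93 to 7.35 on day 7 and 9.24 to 9.33 on day 21, so that it was low on the same arrays as Sox9. This was not particular to ductal genes. Boc of the Hedgehog list (means of 7.80, 6.74 and 8.51), the mesenchyme marker Pdgfra (8.47, 7.16 and 9.03) and the neural marker Map2 (6.87, 5.62 and 6.97) were lowest at day 7 too. Not every ductal gene was, Epcam being lowest at day 4 (8.10, 8.62 and 9.32).

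Cartilage matrix genes, which Sox9 with Sox5 and Sox6 is known to activate in chondrocytes, were for the most part not called. Of 12, from day 7 to 21, 1 rose (Col11a1, from a mean of 5.95, below background, to 7.06), 1 fell (Col2a1, -0.60 ± 0.12) and 10 did not pass, with a median of -0.13. The 7 genes Acan, Hapln1, Matn1, Matn3, Comp, Cnmd and Col9a1 were below background on every day. The mean of the list lay between 5.89 and 6.07 on all 9 arrays.

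**Figure D3:**
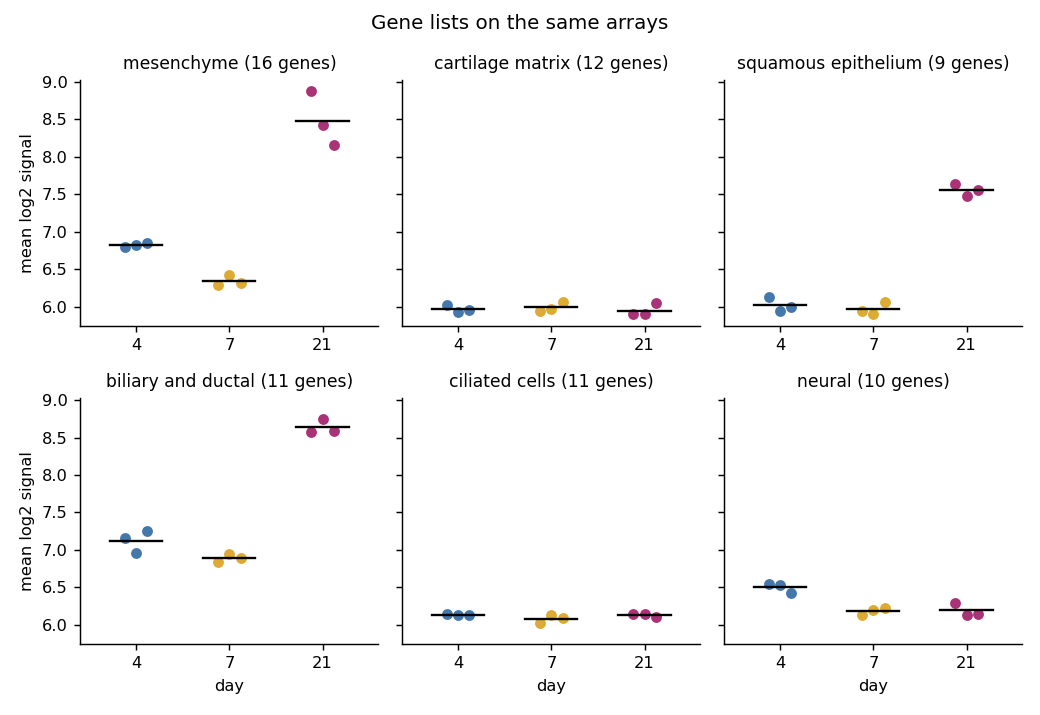
Mean log2 signal of 6 gene lists on each array, by day, with bars for the mean of 3. The mesenchyme, squamous, and biliary and ductal lists are highest at day 21, while the cartilage and ciliated lists lie near 6 on every array.

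Promoters of 3 of the 4 Sox genes that rose from day 7 to 21, and of Foxc1, are shown to set their letters side by side, as the 250 bases before a RefSeq start (GRCm38.p6, 5′ to 3′ on the gene's strand). RefSeq windows were at hand for 37 of the 53 genes and 9 of the 20 called ones, with no window for Sox9. Sox4 has 1 window, chr13:28953700-28953949 on the minus strand, Sox5 has 1, chr6:143947107-143947356 (minus), and Sox6 has 6, of which that at chr7:115846141-115846390 (minus) is printed. Foxc1, which fell, has the window chr13:31806396-31806645 on the plus strand. Capitals mark the letters AACAAAG or AACAATG, a core of Sox sites, and CCAAT, a box common in promoters. Both strands were searched, so that CCAAT on the other strand reads ATTGG, and no match overlapped another.
Sox4: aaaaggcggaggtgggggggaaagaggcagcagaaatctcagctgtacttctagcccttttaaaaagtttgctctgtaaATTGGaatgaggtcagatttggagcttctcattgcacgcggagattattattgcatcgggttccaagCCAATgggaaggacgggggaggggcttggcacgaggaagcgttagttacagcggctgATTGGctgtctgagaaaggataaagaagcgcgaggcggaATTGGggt
Sox5: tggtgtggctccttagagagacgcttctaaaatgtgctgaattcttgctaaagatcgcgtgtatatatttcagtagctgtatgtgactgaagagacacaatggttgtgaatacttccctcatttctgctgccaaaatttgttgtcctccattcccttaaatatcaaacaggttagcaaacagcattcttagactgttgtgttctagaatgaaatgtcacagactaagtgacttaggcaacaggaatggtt
Sox6: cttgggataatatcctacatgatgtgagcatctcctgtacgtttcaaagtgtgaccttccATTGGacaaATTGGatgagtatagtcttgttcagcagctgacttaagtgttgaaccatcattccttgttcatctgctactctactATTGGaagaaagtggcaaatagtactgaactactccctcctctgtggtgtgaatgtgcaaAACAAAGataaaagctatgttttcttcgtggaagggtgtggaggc
Foxc1: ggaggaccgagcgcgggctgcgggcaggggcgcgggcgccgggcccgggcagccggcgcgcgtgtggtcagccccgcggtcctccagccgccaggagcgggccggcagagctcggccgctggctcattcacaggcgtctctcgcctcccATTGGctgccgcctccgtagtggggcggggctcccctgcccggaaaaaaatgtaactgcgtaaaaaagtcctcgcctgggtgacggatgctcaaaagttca
The Sox4 window held 4 CCAAT boxes, 171, 104, 47 and 8 bases before the start, against 0.840% of all 32851 windows with at least 4. The Sox5 window held none of these letters. The Sox letters were found in 4 of the 6 Sox6 windows, 45 bases before the start in the printed window, and in 2 of 3 Foxp1 windows. A window of Foxp3, a gene called in no comparison, held them too. In all they were in 7 of the 45 windows of these genes (15.6%), beside 8.12% of all windows. Of these 7 windows, 4 were of Sox6, 2 of Foxp1 and 1 of Foxp3. Each window of a gene was counted on its own, so the 15.6% is a share of windows and not of genes. The forkhead core TGTTTAC was in 3.17% of all windows and in 1 window of these genes, that of Sox12. The Sox5 and printed Sox6 windows had 3 and 2 CG dinucleotides, and the Sox4 and Foxc1 windows 11 and 29, beside a median of 6 over all windows. The other 5 Sox6 windows had 1, 2, 2, 10 and 9, so the printed one does not stand for all of them. A match describes letters and not a bound site.

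Of the 4 SoxB genes kept by the rule, some of which keep neural progenitors undifferentiated, 2 fell from day 7 to 21 and 0 rose. Sox2, a SoxB gene that the rule left out, did not fall: its means were 6.78, 8.12 and 8.57 on the 3 days. Its rise by day 7 was called (1.35 ± 0.20, limma adjusted p = 0.00125), and its change from day 7 to 21 was not (0.44 ± 0.20). Sox1 (probe set 17499100), a marker of the neural plate, was at 6.12, 6.09 and 6.09 on day 4, 6.51, 6.61 and 6.70 on day 7, and 5.35, 5.85 and 5.21 on day 21. The day 7 arrays were the highest and the day 21 arrays, all below background, the lowest, with no overlap. It fell by 1.14 on the log2 scale from day 7 to 21, 2.20-fold (SE 0.15, limma adjusted p = 2.88e-04), a size set against the floor of the array. The difference of 0.51 ± 0.15 from day 4 to 7 just missed the threshold (adjusted p = 0.0509), and 6 of 16 alternatives passed it (adjusted p 0.00774 to 0.0488). The RNA Sox1ot, which overlaps Sox1, had a probe set of its own whose changes were between -0.05 and 0.05. Sox3, its X-linked relative, was at 6.80, 6.88 and 7.10, then 6.86, 7.08 and 7.38, then 6.23, 6.18 and 6.37. Sox3 fell from day 7 to 21 (-0.85 ± 0.14, limma adjusted p = 0.00127). Sox14 and Sox21 were called in no comparison.

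Of 10 neural markers, 1 rose and 3 fell from day 4 to 7, with a median of -0.24, and 2 rose and 2 fell from day 7 to 21, with a median of 0.02. By day 7 the cytoskeletal genes Map2 (-1.25 ± 0.15), Stmn2 (-1.08 ± 0.21) and Nes (-1.06 ± 0.18) fell. Map2, with means of 6.87, 5.62 and 6.97 on the 3 days, was below background on day 7 only. Pax6, a neural and eye factor, rose from a mean of 5.86 to 6.49 by day 7 and fell to 5.81 by day 21, both of its outer means being below background. Dcx, Zic1 and Pou3f2 were below background on every day, and the mean of the list was 6.42 to 6.55 on day 4, 6.12 to 6.22 on day 7 and 6.13 to 6.29 on day 21. Of 10 pluripotency markers, 4 fell and 1 rose (Klf4) from day 7 to 21, with a mean of 6.67 to 6.80 on day 7 and 6.06 to 6.20 on day 21, and Dppa3 and Esrrb were below background on every day. From day 4 to 7, when Sox1 and Sox3 were not called, 4 of these 10 had already fallen and 1 rose. The markers did not move as 1 group: Tdgf1 had means of 11.34, 7.46 and 5.15 on the 3 days, and Tfcp2l1 of 6.52, 9.60 and 8.05. The part of these marker lists in the falls of Sox1 and Sox3 was not tested. Sox15 and Sox30, of the SoxG and SoxH groups, were below background on all days: Sox30, a factor of male germ cells, was at 5.49, 5.34 and 5.59 on day 4, 5.59, 5.68 and 5.62 on day 7, and 5.48, 5.59 and 5.91 on day 21.

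Among the 38 forkhead genes kept by the rule, Foxc1 changed most. It encodes a factor of paraxial and cardiac mesoderm, neural crest and vascular development. Foxc1 (probe set 17286340) was at 7.47, 7.44 and 7.12 on day 4, 5.21, 5.74 and 5.22 on day 7, and 5.84, 5.68 and 5.83 on day 21. Only the day 4 arrays were above background, and they did not overlap with the others. It fell by 1.95 on the log2 scale by day 7 (SE 0.16, limma adjusted p = 1.52e-05) and remained lower at day 21 than at day 4 (-1.56 ± 0.16, 3.30e-05). These sizes are set against the floor. From day 7 to 21 its change of 0.39 ± 0.16 was not called, although it passed without day 7 replicate 2 (0.57, adjusted p = 0.0147, against 0.103 with all arrays), the array on which Foxc1 was highest that day. Of 10 endothelial markers, 3 rose and 1 fell from day 4 to 7, with array means of the list between 5.76 and 5.85 on day 4 and between 5.97 and 6.11 on day 7, and Tek, Tie1, Emcn, Esam, Erg and Cldn5 were below background on every day. Of 10 cardiac muscle markers, 5 rose and 0 fell in that interval, with array means between 6.47 and 6.62 on day 4 and between 7.38 and 7.45 on day 7.

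Of the other 7 forkhead genes of mesoderm and stroma, 2 were called, both lower at day 21 than at day 4. Foxc2, the close relative of Foxc1 in lymphatic and mesodermal development, was near background and fell from day 4 to 21 (-0.41 ± 0.10, limma adjusted p = 0.0111). Foxf1, a Hedgehog-induced factor of gut and lung mesenchyme, fell over the same span (-0.48 ± 0.16, adjusted p = 0.0453), with overlapping arrays of 7.16 to 7.63 on day 4 and 6.68 to 7.22 on day 21. The Foxf1 call was lost without day 4 replicate 1 or 3, any day 7 array, or day 21 replicate 1 or 2, and in a fit of those 2 days alone, and over 16 alternatives its adjusted p ran from 0.00741 to 0.167. Foxf2, Foxl1, Foxd1, Foxd2 and Foxs1 were called in no comparison, and Foxf2, Foxd1 and Foxd2 were below background on every day. None of the 8 genes of this group was called from day 7 to 21, the interval in which 14 of 16 mesenchyme markers rose, and their changes lay between -0.37 and 0.39.

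Of 15 Hedgehog pathway genes, which act upstream of FoxF and Foxl1 in the gut wall, 1 rose and 2 fell from day 4 to 7, and 2 rose and 2 fell from day 7 to 21. The ligand gene Ihh rose by day 7 (0.86 ± 0.15). The co-receptor gene Boc fell by day 7 (-1.05 ± 0.15) and rose by day 21 (1.76 ± 0.15), when the ligand-binding inhibitor Hhip also rose (from 5.54, below background, to 7.21) and the transcription factor Gli3 fell (-1.07 ± 0.26). The pathway median was -0.27 from day 4 to 7 and -0.01 from day 7 to 21.

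Foxq1 rose in both intervals. It encodes an epithelial forkhead factor, first known from hair shaft and stomach mucosa. It (probe set 17286320) was at 6.99, 7.46 and 7.48 on day 4, 8.52, 8.44 and 8.44 on day 7, and 9.01, 9.25 and 9.09 on day 21. Each day lay above the day before it on every array. The rise was 1.15 ± 0.14 by day 7 (2.22-fold, limma adjusted p = 2.43e-04), a further 0.65 ± 0.14 by day 21 (0.00569), and 1.80 ± 0.14 or 3.49-fold over the whole span (4.77e-06), the largest rise of the 53 genes. A second Foxq1 probe set lay below background on all days and was not called. With the mean of both probe sets the 3 rises were 0.65, 0.32 and 0.97, all still called but under 2-fold. Over 16 alternatives the adjusted p of the 3 rises ran from 5.56e-05 to 0.00188, from 0.00130 to 0.0365 and from 7.31e-07 to 1.21e-04.

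Foxj1, the factor that switches on the genes of motile cilia, rose late. It (probe set 17272339) was at 6.30, 5.94 and 5.99 on day 4, 6.04, 6.34 and 6.33 on day 7, and 7.23, 7.18 and 7.41 on day 21. The day 21 arrays did not overlap with the others, and the rise from day 7 was 1.04 ± 0.13 or 2.05-fold (limma adjusted p = 2.18e-04). The early arrays lay close to background, so this size is set against the floor. Of 11 ciliated cell genes, 1 rose (Tekt2, from a mean of 5.46, below background, to 6.16), 0 fell and 10 did not pass in the same interval, with a median of -0.02. Dnah5, Dnah9, Tekt1 and Spag17 were below background on every day, and the mean of the list was 6.02 to 6.13 on day 7 and 6.11 to 6.15 on day 21.

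The remaining epithelial and organ forkhead genes, Foxe1, Foxi1, Foxi2, Foxi3, Foxl2 and Foxn1, were called in no comparison, and Foxi3, Foxl2 and Foxn1 were below background on every day. Foxn1, the factor of thymic and skin epithelium, had a day 21 mean of 5.33. On the same arrays 7 of 9 squamous epithelium markers rose from day 7 to 21 and 0 fell, with a list mean of 5.90 to 6.06 on day 7 and 7.48 to 7.64 on day 21. Krt4 and Krt14, keratins of stratified epithelium, and Trp63, the factor of basal epithelial cells, rose from below background on days 4 and 7 to day 21 means of 9.98, 9.39 and 6.70. Dsg3 rose too but, like Lgals7, was below background on every day.

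**Figure D4:**
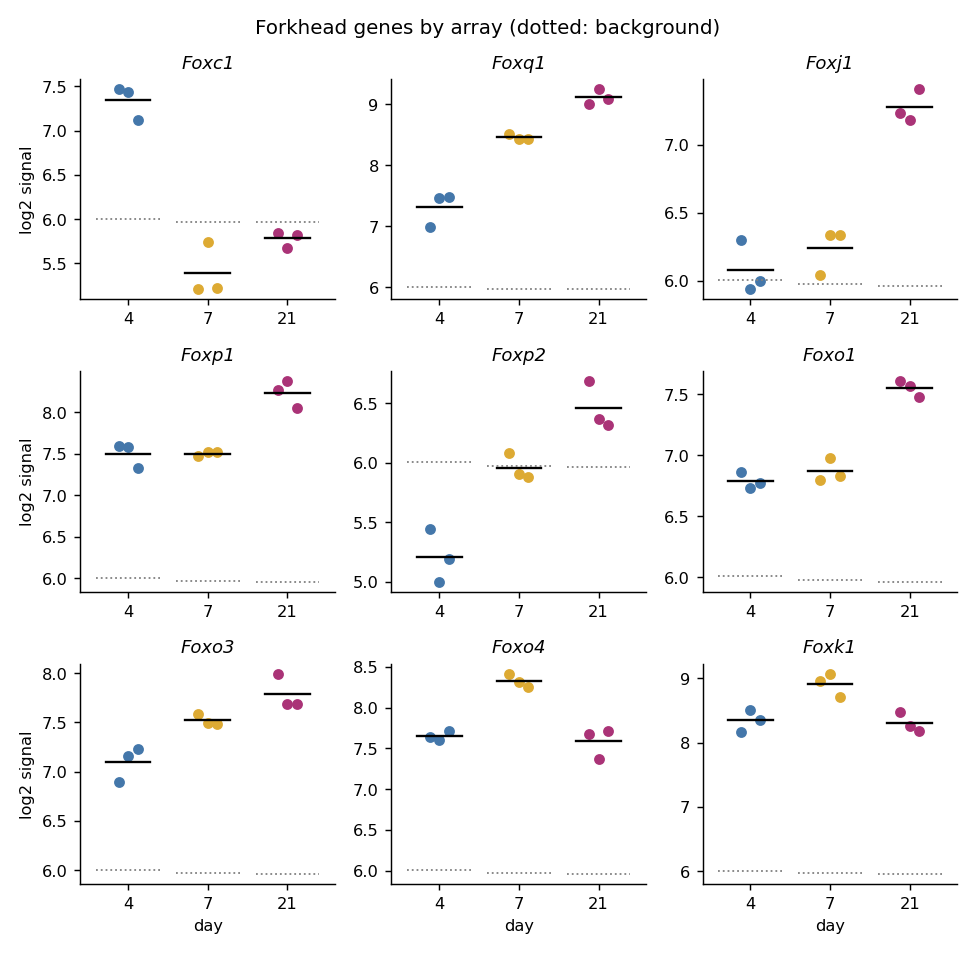
Log2 signal of 9 forkhead genes by day, with points for arrays, bars for the mean of 3 and dotted lines for the background of the day. Foxc1 is high on the day 4 arrays only, Foxq1 rises on each day, Foxj1, Foxp1 and Foxo1 are highest at day 21, and Foxo4 and Foxk1 are highest at day 7.

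FoxP factors repress transcription as dimers, and Foxp1, Foxp2 and Foxp4 are known from lung and foregut epithelium. Foxp2 was at 5.44, 5.0 and 5.19 on day 4, 6.09, 5.91 and 5.88 on day 7, and 6.69, 6.37 and 6.32 on day 21. It was higher on each later day without overlap, but the means of days 4 and 7 were below background. The rise from day 4 to 21 was 1.25 ± 0.14 (limma adjusted p = 7.39e-05), and that from day 7 to 21, 0.50 ± 0.14 (0.0262), was lost without day 7 replicate 2 or 3 or day 21 replicate 1, and when the arrays were quantile normalized again. Over 16 alternatives the adjusted p of the latter ran from 0.00793 to 0.0935. Foxp1 had means of 7.50, 7.50 and 8.23 on the 3 days and rose by 0.73 ± 0.11 from day 7 to 21 (adjusted p = 9.35e-04). Foxp4 was called in no comparison, with arrays between 8.49 and 9.02. Foxp3, the factor of regulatory T cells, was below background on all days, with arrays between 4.96 and 5.44.

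FoxO factors are held in the cytoplasm when insulin signalling activates AKT and otherwise drive genes of stress resistance and energy use. Of the 4 FoxO genes, 2 rose from day 4 to 7, and from day 7 to 21 1 rose and 1 fell. Foxo4 was at 7.64, 7.60 and 7.72 on day 4, 8.42, 8.31 and 8.25 on day 7, and 7.68, 7.37 and 7.72 on day 21, so that the day 7 arrays stood above all others. It rose by 0.67 ± 0.11 (limma adjusted p = 0.00242) and then fell (-0.74 ± 0.11, 8.08e-04). Foxo1, with means of 6.79, 6.87 and 7.55, rose from day 7 to 21 by 0.68 ± 0.10 (4.34e-04). The second Foxo1 probe set lay below background and was not called (-0.18 ± 0.13), and with the mean of both probe sets the Foxo1 call was lost (0.25, adjusted p = 0.104, the highest of 16 alternatives that began at 1.27e-04). The call from day 4 to 21 was lost in the same way (0.28, 0.0579, the highest of 16 that began at 3.88e-05). Foxo3, with means of 7.09, 7.52 and 7.79, was higher at day 21 than at day 4 (0.69 ± 0.12, 0.00158). Its rise by day 7 (0.43 ± 0.12, 0.0466) was lost with the replicate block (0.0823), with median centring, and without any day 4 or day 7 array or day 21 replicate 2, and its adjusted p ran from 0.0208 to 0.157 over 16 alternatives. Foxo6 was called in no comparison.

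Of 24 genes of the insulin, AKT and FoxO axis, 5 rose and 2 fell from day 4 to 7, 8 rose and 3 fell from day 7 to 21, and 13 rose and 2 fell from day 4 to 21, with medians of 0.09, 0.12 and 0.30. The largest change by day 7 was a rise of Pik3cb (1.53 ± 0.12), a catalytic subunit of PI3 kinase, which then fell (-1.05 ± 0.12). From day 7 to 21 Igf1r, the receptor of insulin-like growth factor, rose by 1.20 ± 0.16. Txnip, an inhibitor of glucose uptake, rose by 1.42 ± 0.09, and Bcl6, a repressor, rose from below background to a mean of 6.82. Of other genes described as FoxO targets, Sesn3 rose (0.83 ± 0.14), and Fbxo32 rose from below background to a mean of 6.69. Cited2 fell (-0.55 ± 0.12), and Cdkn1b, Bcl2l11, Ccng2, Sesn1, Sod2, Cat, Pck1 and G6pc were not called. Sgk1, a kinase that phosphorylates FoxO factors, fell (-1.24 ± 0.16).

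The broadly expressed FoxK, FoxJ and FoxN genes were all above background throughout, and 3 of the 6 were called in at least 1 comparison. Foxk1, a metabolic repressor, rose by day 7 (0.57 ± 0.13, limma adjusted p = 0.0161) and fell by day 21 (-0.61 ± 0.13, 0.00712), so that, as for Foxo4, the day 7 arrays stood above all others. The first of these calls was lost without day 4 replicate 1, day 7 replicate 1 or day 7 replicate 2, with 16 alternatives between 0.00619 and 0.0667. Without each of these arrays in turn, 3 of the 53 genes were called higher at day 7 instead of 5, Foxk1 and Foxo3 being the ones lost. Foxk2 was at 9.33, 9.43 and 9.44 on day 4, 9.21, 9.19 and 9.11 on day 7, and 8.87, 8.92 and 8.87 on day 21. Each day lay below the day before it on every array, and the fall from day 4 to 21 was -0.52 ± 0.09 (0.00120). From day 7 to 21 the Foxk2 change of -0.28 ± 0.09 (0.0402) was lost with the replicate block (0.0689), with quantile normalization applied again, in a fit of those 2 days alone, without any day 7 or day 21 array and without day 4 replicate 2 or 3 (0.0157 to 0.116 over 16 alternatives). Foxn2 fell from day 7 to 21 (-0.59 ± 0.12, 0.00512). Foxj2, Foxj3 and Foxn3 were called in no comparison.

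Among the forkhead genes of ectoderm, stem cells and germ line, Foxd3, a factor of pluripotent cells and neural crest, was above background but was not called. It was at 7.05, 6.74 and 6.74 on day 4, 6.59, 6.78 and 6.73 on day 7, and 6.42, 6.44 and 6.87 on day 21, with overlapping days. Its change from day 4 to 21 (-0.27) passed only without day 21 replicate 3 (-0.41, adjusted p = 0.0348, the lowest of 16 alternatives that reached 0.523). Of 9 neural crest markers, 3 rose and 2 fell over that span, and their array means lay between 6.21 and 6.80 on all days. Foxb1, a factor of the developing midbrain and hypothalamus, had a day 4 mean at the edge of background, 6.02, lower means after it, and fell from day 4 to 21 (-0.65 ± 0.18, limma adjusted p = 0.0173). That call was lost without day 4 replicate 2 or day 21 replicate 1, with 15 alternatives between 0.00879 and 0.0645. Foxb2, Foxe3, Foxd4, Foxn4, Foxr1 and Foxr2 were called in no comparison, and the last 4 were below background on every day.

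In all, 20 of the 53 genes were called in at least 1 comparison, or 37.7% beside 36.2% of all genes, and 33 in none. None of the 33 changed by more than 0.38 in either direction, 18 of them were above background on every day, and 14 of the 53 were below it on every day. For those 14 the arrays give only the floor as a bound. Of the 9 genes left out by the rule, 5 were called from day 4 to 7, 4 higher and 1 lower, beside 9 of the 53. From day 7 to 21, 1 of these 9 was higher and 4 were lower. The 1 higher was Foxa1, a pioneer factor of endoderm, which rose in both intervals (0.74 ± 0.09 and 1.38 ± 0.09). Foxa3 and Sox17 rose by day 7 (1.67 ± 0.11 and 1.47 ± 0.10) and then fell (-0.63 ± 0.11 and -0.63 ± 0.10). Sox2 rose by day 7 (1.35 ± 0.20). Foxh1 fell in both intervals (-0.58 ± 0.16 and -2.18 ± 0.16), to a day 21 mean of 5.83, below background. Foxm1 fell from day 7 to 21 (-0.70 ± 0.15).

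Some arrays of a day held identical values for a gene. This occurred for 9.38% of all genes on day 4, 9.39% on day 7 and 6.76% on day 21, and for 8, 4 and 1 of the 53 genes, Sox4 and Sox6 on day 4 and Foxq1 on day 7 among them. Between such arrays the spread is 0, and the limma fit takes part of each gene's spread from all genes.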

How the data were processed

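The 9 samples were hybridised after labelling with an Affymetrix kit for picogram amounts of RNA, per the labels' protocols. The file holds log2 signals deposited by the authors, and the submitters' processing notes name Affymetrix Expression Console and RMA. Their versions and the genome build are not given in the labels or headers used here. RMA equalises arrays, so a shift of all transcripts would be largely removed. Of 34365 probe sets, the 23521 with a single gene symbol were kept, and the brightest of each gene gave 22180 genes. All 53 members matched RefSeq by Entrez number.

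Day means were estimated in limma 3.58.1 (lmFit, eBayes; R 4.3.3) from all arrays together, with two-sided tests adjusted over all genes. The procedure was tested on simulated data, and the number of arrays limits its precision. Values on every array are given for members called with a log2 change of at least 1 and, in role groups with none, for the brightest member. Of each other list, up to 4 called genes with the largest changes were to be named, and further names were chosen after their values were seen. The members and lists were chosen with earlier results of these data known. Alternatives covered a replicate block, array scaling, dim genes, probe sets, the variance model, the days fitted, thresholds and single arrays. Promoter sequences are RefSeq's (GRCm38.p6).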

Additional observations from a re-analysis of the deposited data

How the results depend on the processing

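Of 40 calls of single members, 30 held under every alternative fit run and 10 were lost under at least 1, each named beside its value above. With an adjusted p under 0.01, 3 members were higher and 3 lower at day 7 than at day 4, and 4 were lower at day 21 than at day 4. With a log2 change of at least 1 as well, the counts higher and lower were 1 and 2 from day 4 to 7, 5 and 1 from day 7 to 21, and 4 and 1 from day 4 to 21. Leaving out 1 array in turn gave 3 to 6 higher and 3 to 4 lower (day 7 against 4), 8 to 10 and 5 to 7 (day 21 against 7), and 8 to 10 and 6 to 9 (day 21 against 4). With a replicate block these were 4 and 3, 9 and 5, and 9 and 8. A check of correlations did not settle whether the replicate numbers pair the arrays. The deviations of same-numbered arrays correlated between -0.05 and 0.26, and those of different-numbered arrays between -0.18 and 0.07. Of the same-numbered pairs, 2 of 9 exceeded 0.1, both between days 7 and 21. The same-numbered pairs of those days were at 0.08, 0.14 and 0.26. Members above the 99th percentile of olfactory receptor genes numbered 22, 19 and 23 on days 4, 7 and 21, instead of 37, 36 and 35. Leaving out 1 array in turn, the uncalled change of Sox30 from day 7 to 21 ran from -0.093 to 0.12 and that of Foxo4 from day 4 to 21 from -0.13 to 0.046, so both turned sign. Scaling moved the median of all genes by less than 0.1. Signals near background limit what can be said of 14 members.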
